A study of Mus musculus with 23 samples.

Results

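The 9 genes described here encode transcription factors that set and keep the identity of microglia, the resident macrophages of the brain: Sall1, Sall3, Mef2a, Mef2c, Spi1, Irf8, Runx1, Maf and Cebpb. They were taken by gene symbol from the 53090 genes of the deposited tables, and all 9 were found and were detected in every library. The labels give RNA from microglia of female C57BL/6 mice in 4 groups, namely young (Y, n = 7), young repopulated (Y-re, n = 3), old (O, n = 5) and old repopulated (O-re, n = 8). Repopulation follows depletion with PLX5622, a drug that blocks CSF1R, the receptor microglia need to survive, mixed into chow at 1200 ppm, while treatment controls ate the same chow without it. The sources used here do not give ages, the length of the diet, the time allowed for repopulation or the number of mice behind a library, and no label of these libraries names a stroke, although the series title does. The protocols describe magnetic selection of CD11b-positive cells with culture as well as RNA from cells sorted by flow cytometry, so a library can hold any cell that passed the gate. Nothing says which libraries come from separate mice, so p-values measure the spread between these libraries.

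As background, macrophages of every tissue share a set of lineage factors, and each tissue adds its own. PU.1, the product of Spi1, opens chromatin in all of them and often binds together with IRF8, RUNX1 and C/EBP factors. Sall1, a zinc-finger repressor, is the factor most closely tied to microglia among brain and blood myeloid cells, and MEF2 factors act at microglial enhancers. Microglia in which Sall1 is deleted take on features of other macrophages and of inflammation.

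Libraries held between 43.66 and 58.19 M estimated counts (1 M is 1000000), and no pair within a group was close enough to be the same library (at least 17.76 chi-square units per gene). Microglia markers were present in all libraries. Tmem119 ranged from 420 to 1659 counts per M (CPM, scaled by TMM, a method that corrects for library composition). Cx3cr1 ranged from 975 to 3291, P2ry12 from 239 to 2011 and Siglech from 102 to 770 CPM. Microglial RNA was thus found everywhere, but these levels do not show how pure a library was. The titles carry library numbers from 1 to 24, and nothing says what the numbers stand for. They were split here into 2 ranges, 1 to 11 (3 young, 2 old and 5 old repopulated libraries) and 12 to 24 (4 young, 3 young repopulated, 3 old and 3 old repopulated). A ribosomal RNA gene held 0.644 to 3.038% of the counts in numbers 1 to 11 and 0.248 to 0.879% in 12 to 24, and 16399 to 19953 genes were detected in the lower numbers against 17620 to 22208 in the higher ones. Young library 3 held both the highest such share and the fewest genes, and results that move without it are given below. Since the ranges separate libraries within groups, values by range are given beside the results they touch.

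The sequence just upstream of a gene's start shows where lineage factors such as PU.1 could meet it, and 4 such windows are shown because these members include both the widest-ranging gene (Sall1) and a near-constant one (Mef2a). Each holds the 250 bases before an annotated start in RefSeq (build GRCm38.p6), 5′ to 3′ on the gene's strand, and capitals mark GGAA, the core of ETS factor sites, on either strand. The table holds 3 windows for Sall1, 2 for Irf8, 3 for Mef2c and 1 for Mef2a, and the most upstream one is shown for each. These are chr8:89044163-89044412 (minus strand) for Sall1, chr8:120736108-120736357 (plus strand) for Irf8, chr13:83503784-83504033 (plus strand) for Mef2c and chr7:67372859-67373108 (minus strand) for Mef2a.
Sall1: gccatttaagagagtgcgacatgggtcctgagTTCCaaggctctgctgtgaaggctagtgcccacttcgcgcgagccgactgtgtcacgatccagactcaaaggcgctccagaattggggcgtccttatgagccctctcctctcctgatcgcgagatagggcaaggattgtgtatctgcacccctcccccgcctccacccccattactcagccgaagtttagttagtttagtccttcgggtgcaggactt
Irf8: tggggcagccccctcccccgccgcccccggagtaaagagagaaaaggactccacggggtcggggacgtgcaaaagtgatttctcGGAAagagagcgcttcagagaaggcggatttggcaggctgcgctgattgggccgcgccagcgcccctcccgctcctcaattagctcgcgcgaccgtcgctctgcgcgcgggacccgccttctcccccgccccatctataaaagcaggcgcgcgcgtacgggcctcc
Mef2c: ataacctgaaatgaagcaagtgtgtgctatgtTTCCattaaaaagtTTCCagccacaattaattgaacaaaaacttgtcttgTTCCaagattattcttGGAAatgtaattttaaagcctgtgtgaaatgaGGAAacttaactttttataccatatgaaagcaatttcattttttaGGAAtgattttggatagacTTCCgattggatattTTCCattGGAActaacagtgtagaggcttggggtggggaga
Mef2a: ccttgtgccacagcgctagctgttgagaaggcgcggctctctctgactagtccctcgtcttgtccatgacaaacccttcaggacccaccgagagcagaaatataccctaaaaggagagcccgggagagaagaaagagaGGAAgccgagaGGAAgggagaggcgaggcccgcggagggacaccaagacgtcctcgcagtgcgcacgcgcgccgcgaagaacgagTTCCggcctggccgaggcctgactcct
The Mef2c window shown held 9 GGAA cores, Mef2a 3, and Sall1 and Irf8 1 each. Other windows of the same genes held 2 and 1 cores for Mef2c, 0 and 2 for Sall1 and 2 for Irf8. GGAA occurs in 93.4% of all 32851 annotated windows of this length, so its presence is common. The Mef2c window shown was AT-rich, at 33.6% G and C, against 56.4% for Sall1, 61.6% for Mef2a, 67.2% for Irf8 and a median of 52.4% over all windows. None of these 4 windows held the MEF2 letters CTANNNNTAG (3.2% of all windows), the RUNX letters TGTGGT (14%), the IRF letters GAAANNGAAA (2.98%), the C/EBP letters TTGCNNCAA (1.74%) or the MAF letters TGCTGA (16.1%), searched on both strands. The MAF letters occurred once in another Irf8 window and once in another Mef2c window. A match is a description of letters, not of binding. In all, windows of 6 members were searched, and any member window on 1 chromosome was left out of the search.

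Per length, Cebpb, Spi1 and Irf8 were the most abundant members, and Runx1, also a lineage factor, was among the least abundant. Over all 23 libraries the mean deposited level in transcripts per M (TPM, which corrects for gene length) was 492 for Cebpb, 290 for Spi1, 267 for Irf8, 166 for Mef2a, 101 for Sall1, 98.1 for Maf, 97.1 for Mef2c, 44.7 for Runx1 and 19.3 for Sall3. The SDs of Sall1 (50.5 TPM), Maf (22.7 TPM) and Mef2c (28.8 TPM) were far larger than the gaps between these 3 neighbours, whereas Sall3, a zinc-finger relative of Sall1, was lowest, with no library above 32.4 TPM.

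**Figure D1:**
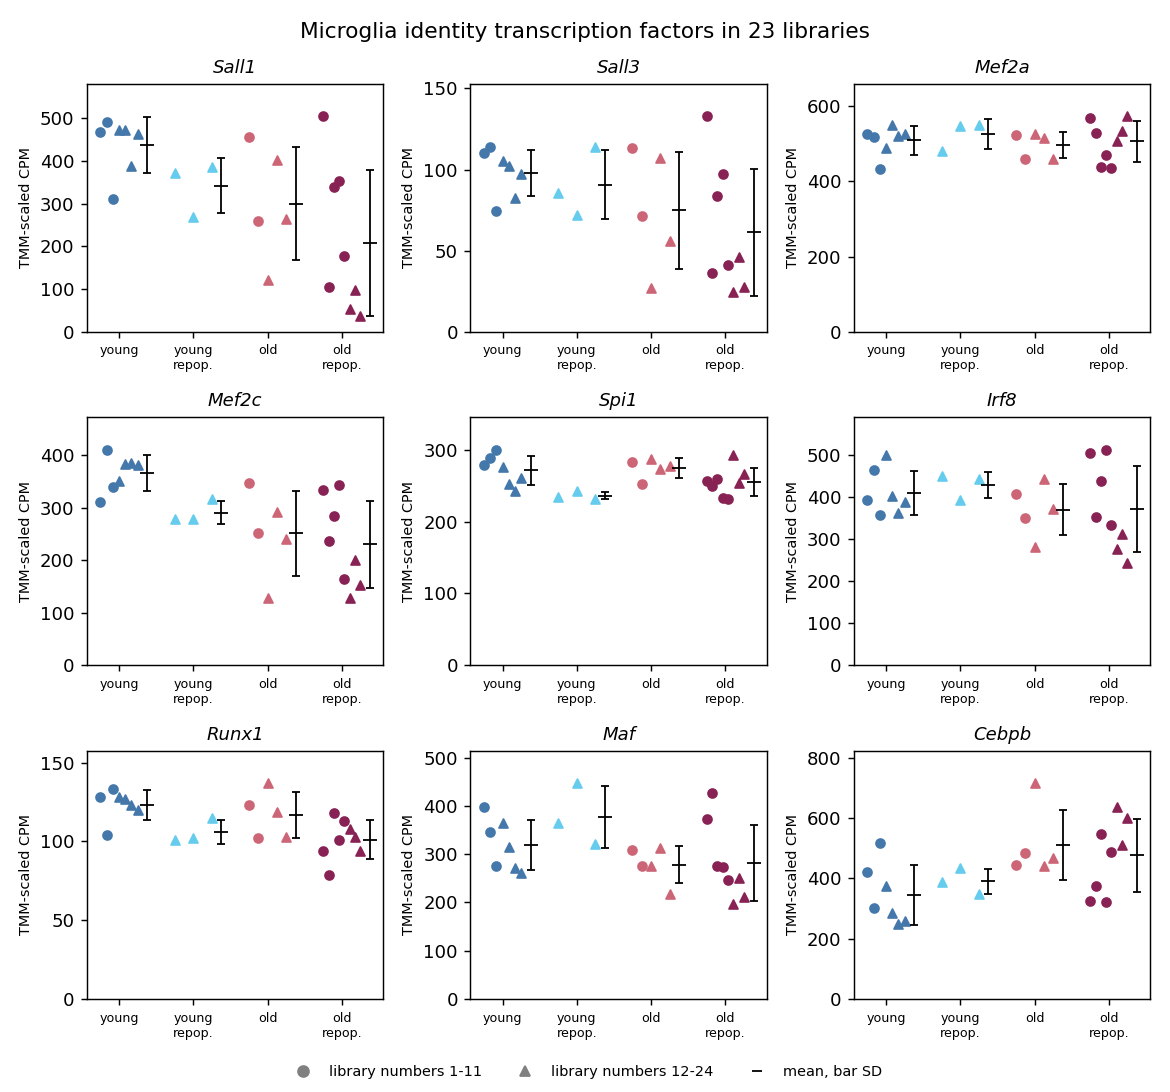
Level of each of the 9 members (y axis, TMM-scaled CPM, starting at 0) in every library of the 4 groups, circles for library numbers 1 to 11 and triangles for 12 to 24, with the mean and SD beside the points. Sall1 and Sall3 spread from the young level to far below it in old repopulated libraries, with Sall1 between 36.8 and 505 CPM, while Spi1 and Mef2a hold a narrow band in all groups.

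Sall1, the microglia-restricted repressor (ENSMUSG00000031665.7, chr8:89027235-89044162, minus strand, GRCm38), was the member that varied most. In the young libraries it lay between 310 and 490 CPM with a median of 467 CPM, the lowest being young library 3. The young repopulated libraries held 371, 269 and 386 CPM, and the old libraries 455, 259, 121, 401 and 265 CPM. In the old repopulated libraries it ran from 36.8 to 505 CPM, a 13.7-fold range, with a median of 141 CPM. Thus 5 of 8 old repopulated libraries lay below every young one, 1 lay above all of them, and the groups overlapped. Group means were 437 ± 65.0 (SD, n = 7), 342 ± 63.3 (n = 3), 300 ± 132 (n = 5) and 208 ± 170 CPM (n = 8) for Y, Y-re, O and O-re. Of neighbours in that order, young repopulated against young and old repopulated against old were compared, and edgeR called neither in the fit to all libraries. That fit uses an estimate of spread shared by all groups. The SD of log2 CPM of Sall1 was 0.24, 0.28, 0.75 and 1.36 in Y, Y-re, O and O-re. The log2 difference of old repopulated from young libraries was -1.07 ± 0.41 (SE), which missed the threshold in edgeR's quasi-likelihood test across all genes (adjusted p = 0.08, threshold 0.05).

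Sall3, the less abundant relative of Sall1, followed the same layout. Its range was 74.7 to 114 CPM in young libraries (median 102 CPM) and 24.5 to 133 CPM in old repopulated ones (median 43.6 CPM). The young repopulated libraries held 85.7, 72.3 and 114 CPM, and the old ones 113, 71.1, 27.1, 107 and 55.9 CPM. As for Sall1, 5 of 8 old repopulated libraries lay below all young libraries and 1 above, so the groups overlapped. The log2 difference of old repopulated from young was -0.68 ± 0.32 for Sall3 (edgeR adjusted p = 0.157). Sall1 and Sall3 encode related proteins, and an estimate that divides reads among similar genes could share some between them.

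Mef2c, a MADS-box factor that restrains microglial activation (ENSMUSG00000005583.16, chr13:83504034-83667080, plus strand), was lower in old repopulated than in young libraries. The young libraries ranged from 312 to 411 CPM (median 382 CPM). The young repopulated libraries held 279, 278 and 316 CPM and the old libraries 347, 253, 128, 292 and 240 CPM. The old repopulated libraries ranged from 129 to 344 CPM (median 219 CPM), and 6 of 8 lay below the lowest young library. The log2 difference was -0.67 ± 0.20 (edgeR adjusted p = 0.026). Without 1 library the value stayed between -0.77 and -0.58, and the call was lost, at an adjusted p of at most 0.055, in 5 of 23 such fits, those without young library 2 and without old repopulated libraries 5, 6, 7 or 8. Without young library 3 it was -0.68 (adjusted p = 0.0311).

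Mef2a, the other MEF2 gene measured (ENSMUSG00000030557.17, chr7:67231163-67372858, minus strand), was nearly constant. It ranged from 433 to 549 CPM in young libraries (median 521 CPM) and from 436 to 574 CPM in old repopulated ones (median 517 CPM). The young repopulated values were 480, 548 and 549 CPM and the old values 524, 459, 526, 515 and 460 CPM, so all 4 groups overlapped. Lysmd4 overlaps Mef2a on the opposite strand. Its log2 difference of old repopulated from young was -0.01 ± 0.07 (edgeR adjusted p = 0.968), and its sign changed under 3 other settings at sizes of up to 0.05. Among 10171 genes with a mean of at least 5 CPM, 4.61% had a smaller SD of log2 CPM over the 23 libraries than Mef2a (0.12), against 95.9% for Sall1 (1.08).

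Runx1, a factor of blood cell formation that is also known from young, rounded microglia (ENSMUSG00000022952.16), was the second member lower in old repopulated than in young libraries. The young libraries ranged from 104 to 133 CPM (median 127 CPM) and the old repopulated libraries from 78.5 to 118 CPM (median 102 CPM), with 5 of 8 below the young minimum. Young repopulated libraries held 101, 102 and 115 CPM, and old ones 123, 102, 137, 119 and 103 CPM. The log2 difference was small, -0.29 ± 0.08 (edgeR adjusted p = 0.0234). The call was lost in 2 of 23 fits that left out 1 library, without young library 5 (-0.25, adjusted p = 0.0649) and without old repopulated library 7 (-0.27, adjusted p = 0.0535), and it was kept without young library 3 (-0.27, adjusted p = 0.0405). The predicted gene Gm26626 lies on the opposite strand of Runx1, and whether the counting used strand was not given in the sources used here. Old repopulated libraries differed from old ones by -0.21 ± 0.09 in Runx1, which did not pass (edgeR adjusted p = 0.407).

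Spi1, which encodes PU.1 (ENSMUSG00000002111.8, chr2:91082390-91115756, plus strand), held steady beside Mef2a. Young libraries ranged from 242 to 300 CPM (median 276 CPM) and old repopulated libraries from 231 to 292 CPM (median 255 CPM). The old libraries held 283, 252, 287, 273 and 277 CPM. The 3 young repopulated libraries, at 234, 242 and 232 CPM, lay below all young libraries, although the nearest pair both round to 242 CPM. Their log2 difference from young was -0.20 ± 0.08, which did not pass over all genes (edgeR adjusted p = 0.244). Only 3.39% of the 10171 genes had a smaller SD of log2 CPM than Spi1 (0.12).

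Irf8, the interferon regulatory factor that pairs with PU.1 (ENSMUSG00000041515.9), showed similar group means with a widening spread. Young libraries ranged from 358 to 502 CPM (median 393 CPM), and the old repopulated libraries from 245 to 514 CPM (median 344 CPM). The young repopulated libraries held 451, 393 and 443 CPM and the old libraries 409, 350, 282, 443 and 372 CPM. Of 8 old repopulated libraries, 5 lay below all young ones and 2 above all of them. The log2 difference was -0.14 ± 0.14 (edgeR adjusted p = 0.555).

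Maf encodes c-Maf, a leucine-zipper factor of mature macrophages (ENSMUSG00000055435.6, chr8:115682942-115707794, minus strand). It was highest by mean in young repopulated libraries, which held 364, 447 and 321 CPM. Young libraries ranged from 261 to 398 CPM (median 315 CPM), old libraries held 308, 275, 276, 313 and 218 CPM, and old repopulated libraries ranged from 196 to 427 CPM (median 262 CPM). The old repopulated libraries overlapped the young repopulated ones, although 6 of 8 lay below their minimum, and the log2 difference between these groups was -0.42 ± 0.19 for Maf (edgeR adjusted p = 0.41). Gm15655 overlaps Maf on the opposite strand, with the same limit on strand as for Runx1.

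Cebpb, a leucine-zipper factor that drives inflammatory and stress genes in macrophages (ENSMUSG00000056501.3, chr2:167688915-167690418, plus strand), lay in the opposite direction to Sall1. Young libraries ranged from 249 to 518 CPM (median 301 CPM), the highest being young library 3, and the young repopulated libraries held 387, 434 and 350 CPM. The old libraries held 446, 484, 716, 442 and 469 CPM and the old repopulated libraries ranged from 323 to 637 CPM (median 501 CPM). All 5 old libraries lay above 6 of 7 young ones. The log2 difference of old from young was 0.57 ± 0.20 (edgeR adjusted p = 0.13), and that of old repopulated from young 0.47 ± 0.18 (adjusted p = 0.0716). Without young library 3 both passed, at 0.70 (adjusted p = 0.0406, with 3.38% of all genes called) and 0.60 (adjusted p = 0.0214, with 15.98%). Tmem189 overlaps Cebpb on the opposite strand.

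Age without renewal moved no member past the threshold in the edgeR fit to all libraries, while other fits called Mef2c, Cebpb or both. In old against young libraries 0 of 9 members were called by edgeR, where 2.83% of the 18720 genes tested were (2.60% higher, 0.235% lower). Before adjustment 2 members had an edgeR p under 0.05 (Mef2c, -0.54 ± 0.23, and Cebpb), as did 2870 of the 18720 genes. DESeq2 called 0 members (5.18% of all genes), and limma with voom and library quality weights called both (12.6% of all genes). Cebpb also passed without young library 3, and both passed within library numbers 12 to 24, as given below. The median log2 difference was -0.15 over the members and -0.01 over all genes tested.

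Renewal moved no member past the threshold at either age in the edgeR fit to all libraries, although Sall1 was called in old mice within library numbers 12 to 24, as given below. For old repopulated against old libraries edgeR called 0 of 9 members and 0.278% of all genes. Before adjustment 1 member (Runx1) was under 0.05, as were 1941 of 18720 genes. In young repopulated against young libraries edgeR called 0 of 9 members and 1.34% of all genes. Again 1 member (Spi1) was under 0.05 before adjustment, as were 2832 of 18720 genes. DESeq2 called 0 members in both, with 1.67% of all genes in old and 4.46% in young mice, as did voom, with 2.21% and 13.8%. The largest renewal differences were those of Sall1, -0.53 ± 0.45 in old and -0.36 ± 0.56 in young mice. The difference between the 2 renewals, tested as an interaction, ranged from -0.28 for Cebpb to 0.21 for Mef2c and called 0 members, as did 0.00% of all genes in edgeR. No member had an edgeR p under 0.05 for the interaction before adjustment, where 1542 of 18720 genes did. DESeq2 (0.246% of all genes) and voom (0.807%) called 0 members too.

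The distance of old repopulated from young libraries gave the only calls of the fit to all libraries. Of 9 members, 2 were called, Mef2c and Runx1, both lower, where 15.2% of all genes were called (9.29% higher, 5.92% lower). Against that background, 2 of 9 is not a result about the members as a set. DESeq2 called the same 2 members (19.7% of all genes), and voom called 6 (35.5% of all genes), adding Sall1 (-1.92), Sall3 (-1.09) and Irf8 (-0.29) as lower and Cebpb (0.75) as higher. Leaving out 1 library gave between 0 and 5 called members, with 0 without old repopulated library 7 (11.7% of all genes) and 5 without old repopulated library 1 (25.7% of all genes), when Sall1 (-1.38, adjusted p = 0.0134), Sall3 (-0.92, adjusted p = 0.0263) and Cebpb (0.56, adjusted p = 0.0229) passed as well. Between old repopulated and young repopulated libraries edgeR called 0 members and 0.00% of all genes. Before adjustment 1 member (Maf) was under 0.05, as were 2183 of 18720 genes. DESeq2 called 0 there (0.491% of all genes), and voom 4 (Sall1, Sall3, Mef2c and Maf, with 17.04% of all genes). These comparisons share groups of libraries, so their values are not independent of one another.

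**Figure D2:**
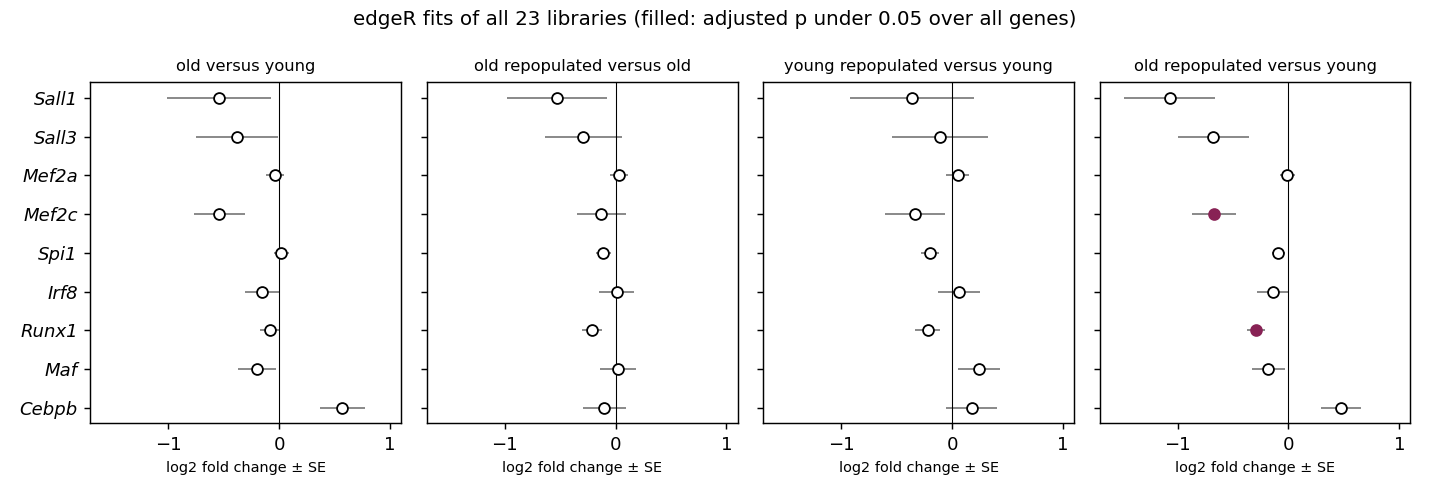
Log2 fold change with SE (x axis) of each member in 4 comparisons of the fit to all 23 libraries, filled points marking an adjusted p under 0.05 over all genes. Mef2c (-0.67) and Runx1 (-0.29) in old repopulated against young libraries are the 2 filled points, and Sall1 has the widest bars.

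Within the old repopulated group, the members divided along the range of library numbers. The 5 old repopulated libraries numbered 1 to 11 held 505, 105, 340, 352 and 177 CPM of Sall1, and the 3 numbered 12 to 24 held 53.4, 96.8 and 36.8 CPM, with no overlap. The log2 difference of the higher from the lower numbers was -2.25 ± 0.45 for Sall1 (edgeR adjusted p = 0.00322), and Sall3 (-1.26), Irf8 (-0.62), Mef2c (-0.76) and Maf (-0.54) passed too. In the same contrast 18.6% of all genes were called. Mef2a (0.14), Spi1 (0.14), Runx1 (0.02) and Cebpb (0.50) did not pass. No member passed between the ranges in the young or in the old group, where only 0.342% and 0.0107% of all genes did.

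Fits within each range called different numbers of members. Among libraries 12 to 24, 7 of 9 members were called in old repopulated against young libraries (41.1% of all genes): Sall1 (-2.84 ± 0.40), Sall3 (-1.55), Mef2c (-1.21), Irf8 (-0.56), Maf (-0.45) and Runx1 (-0.28) as lower and Cebpb (1.0) as higher. Among libraries 1 to 11, 0 of 9 were called (0.0107% of all genes), with Sall1 at -0.51 ± 0.41. The difference between ranges was -2.33 ± 0.61 for Sall1 and 1.0 ± 0.29 for Cebpb, which missed the threshold in edgeR (adjusted p = 0.0579 and 0.0718), where 1.39% of all genes passed. A fit of all libraries with the range as a term called 4 members, Sall1 (-1.53), Sall3 (-0.92), Mef2c and Runx1 (24.5% of all genes). Within 12 to 24, Sall1 was the only member called in old repopulated against old libraries, as lower (-2.08, edgeR adjusted p = 0.00837, 12.7% of all genes). In the same range Mef2c (-0.76) and Cebpb (0.90) differed between old and young (15.7% of all genes), and 6 members differed between old and young repopulated libraries (36.3% of all genes). Among them was Irf8 (-0.64), beside Sall1 (-2.48), Sall3 (-1.49), Mef2c (-0.88), Maf (-0.80) and Cebpb (0.56). Tested directly, the difference between ranges in old repopulated against old was -1.80 ± 0.68 for Sall1 (edgeR adjusted p = 0.672). In old against young it was -0.53 ± 0.37 for Mef2c and 0.72 ± 0.33 for Cebpb (edgeR adjusted p = 0.691 and 0.516). No member passed in these 2 tests, where 0.00% of all genes passed. The share of ribosomal RNA and the number of genes detected also differed between the ranges, as given above. Within old repopulated libraries the summed monocyte markers described below were 362, 1432, 1104, 887 and 3024 CPM in numbers 1 to 11 and 7447, 4060 and 7384 CPM in 12 to 24, with no overlap, whereas they overlapped between the ranges in the young and in the old group. Without the marker Fn1 the sums overlapped in old repopulated libraries too. Library 5, of the lower numbers, then held 1312 CPM, and libraries 6, 7 and 8, of the higher numbers, 2992, 880 and 1219 CPM. The part of these values in the members' differences was not tested.

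**Figure D3:**
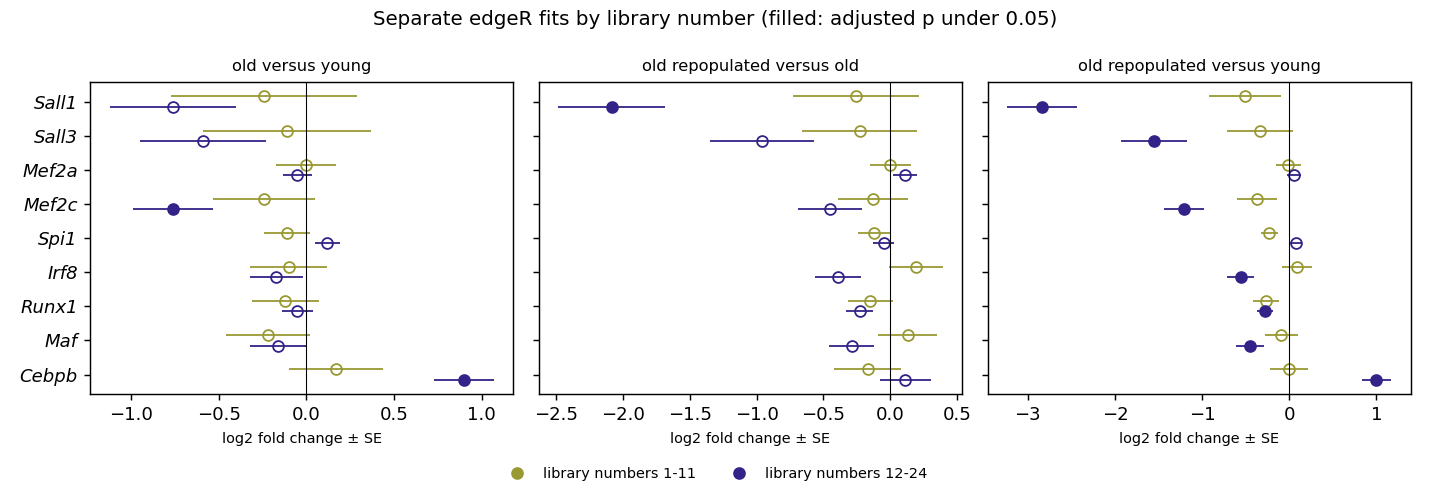
Log2 fold change with SE (x axis, scaled separately in each panel) of each member in 3 comparisons fitted within library numbers 1 to 11 and within 12 to 24, filled points marking an adjusted p under 0.05. In old repopulated against young libraries Sall1 is at -2.84 in the higher numbers and at -0.51 in the lower ones, and 7 members against 0 are filled.

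Sall3, Irf8 and Mef2c varied together with Sall1. With group means removed, log2 CPM of Sall1 correlated over the 23 libraries with Sall3 (r = 0.93, rho = 0.87), Irf8 (r = 0.93, rho = 0.87) and Mef2c (r = 0.85, rho = 0.75), and inversely with Cebpb (r = -0.62, rho = -0.52). Permuting libraries within groups gave a two-sided p of 0.00001 for Sall3 and Irf8, the smallest that 100000 permutations allow (adjusted over the 8 pairs, 4.0e-05), with an adjusted permutation p of 0.0008 for Mef2c and 0.00796 for Cebpb. For rho the adjusted permutation p was 8.0e-05, 0.00012, 0.00864 and 0.0472 for Sall3, Irf8, Mef2c and Cebpb. Maf (r = 0.44, rho = 0.40), Spi1 (-0.38, -0.31), Mef2a (-0.21, -0.18) and Runx1 (0.04, 0.12) did not pass (adjusted permutation p for r from 0.158 to 0.891). Thus Runx1, although lower in old repopulated libraries, did not follow Sall1 from library to library. The share of all genes passing this correlation test was not computed, so the pairings cannot be called particular to these members.

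Leaving out the 2 libraries farthest from the median of Sall1, old repopulated 8 and 6, left r at 0.94 for Sall3, 0.88 for Irf8 and 0.80 for Mef2c, all passing, and at -0.49 for Cebpb, which no longer passed (adjusted permutation p = 0.0748, rho = -0.46). Within library numbers 12 to 24 (n = 13), Sall3 (r = 0.92, adjusted permutation p = 0.0424) and Irf8 (0.87, 0.00608) passed and Mef2c (0.85, 0.111) and Cebpb (-0.66, 0.111) did not. Within 1 to 11 (n = 10), Sall3 (0.98, adjusted permutation p = 0.00544) and Irf8 (0.87, 0.0418) passed, and Mef2c (0.71, 0.214) and Cebpb (-0.32, 0.606) did not. The pairings of Sall1 with Sall3 and Irf8 thus held in each range.

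**Figure D4:**
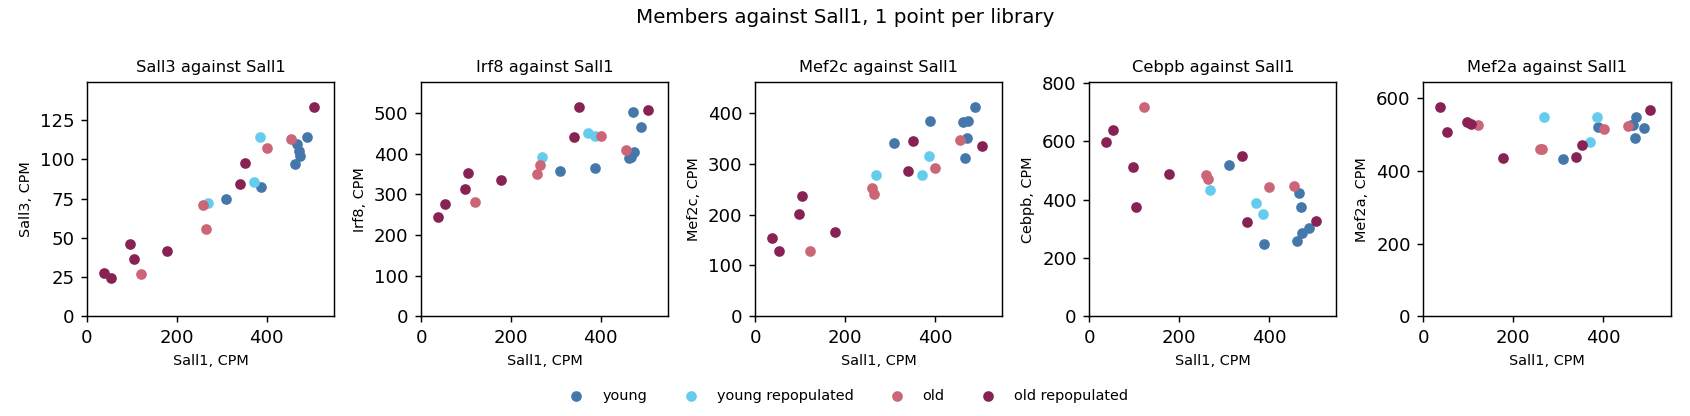
Level of Sall3, Irf8, Mef2c, Cebpb and Mef2a (y axes, TMM-scaled CPM) against Sall1 (x axis, CPM), 1 point per library coloured by group. Sall3, Irf8 and Mef2c are high where Sall1 is high, Cebpb is low there, and Mef2a stays between 433 and 574 CPM along the whole axis.

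The genes most like each member were sought among 9489 others with a mean of at least 5 CPM, by Pearson r of log2 CPM over the 23 libraries, which mixes groups, library ranges and cell makeup and is given as a description. Sall1 was most like Tln2 (r = 0.989), a talin of the cell cortex, and Tgfa (0.985), a growth factor of the EGF family. Sall3 was most like St3gal6 (0.979) and Clasp2 (0.975), Mef2c like Rasgrp3 (0.977) and Golm1 (0.974), and Irf8 like Zfp839 (0.937) and Rgmb (0.923). The steadier members had looser company: Spi1 with Arf6 (0.847) and Kdm6b (0.778), Mef2a with Camk2g (0.742) and Thoc2 (0.719), and Runx1 with Lgmn (0.819) and Gab1 (0.815). Maf was closest to Il6ra (0.878) and Lyl1 (0.867), and Cebpb to Rasgrp4 (0.895) and the stress gene Ddit4 (0.887).

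Markers of other myeloid cells tended to be higher where Sall1 was lower. The summed level of 8 monocyte markers ranged from 272 to 1634 CPM in young, 620 to 1109 CPM in young repopulated, 491 to 4526 CPM in old and 362 to 7447 CPM in old repopulated libraries, and 8 markers of border-associated macrophages, which live in the meninges and around vessels, from 72.5 to 249, 317 to 444, 192 to 905 and 73.6 to 1273 CPM. Fn1, which other macrophages also make, was the larger part of the monocyte sum in every library but old libraries 3 and 5. Without it the sum ranged from 15.8 to 242 CPM in young (median 25.8 CPM), 77.2 to 287 CPM in young repopulated (185 CPM), 124 to 2310 CPM in old (814 CPM) and 95.5 to 2992 CPM in old repopulated libraries (535 CPM). In old repopulated against young libraries 6 of 8 monocyte markers and 5 of 8 border macrophage markers rose, where 9.29% of all genes rose and 5.92% fell. The summed microglia markers ranged from 22175 to 26820, 18881 to 21896, 7876 to 21685 and 7835 to 24282 CPM, and 4 of 8 fell in that contrast. No marker of these 3 lists was at 0 in any library. Their part in the lower Sall1, Sall3, Mef2c and Irf8 was not tested, and in bulk RNA fewer microglia and less RNA of a gene per microglial cell cannot be told apart.

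By library, the old repopulated libraries with 53.4, 96.8 and 36.8 CPM of Sall1 had monocyte sums of 7447, 4060 and 7384 CPM, or 2992, 880 and 1219 CPM without Fn1. Old library 3, with 121 CPM of Sall1 and the highest Cebpb, had 4526 CPM, with 378 CPM of the monocyte marker Ly6c2 and 562 CPM of Ccr2. Old repopulated library 2 differed, since its Sall1 was 105 CPM while Ly6c2 was 2.97 CPM, Ccr2 49.4 CPM and the monocyte sum 1432 CPM. Its Mrc1, a border macrophage marker, was the highest of all libraries at 375 CPM, and its Maf was the highest of its group at 427 CPM. Old repopulated library 1, with the highest Sall1 of all at 505 CPM, had sums of 362 CPM for monocytes and 73.6 CPM for border macrophages. Lymphocyte and neuron markers summed to at most 3.38 and 6.45 CPM. Neutrophil markers summed to at most 311 CPM, and 5 of 8 of them rose in old repopulated against young libraries. Of 8 dendritic cell markers 3 rose in that contrast, Flt3 (3.28, at most 48.4 CPM), Cd209a (4.92, at most 10.3 CPM) and Cd207 (at most 0.770 CPM and at 0 in 17 libraries), where 9.29% of all genes rose. Siglech, the most abundant of these markers and also on the microglia list, lay the other way. It averaged 585 ± 84.1 CPM (SD) in young and 331 ± 223 CPM in old repopulated libraries and was not called. Summed astrocyte markers were 111, 25.7, 90.1, 80.7, 68.2, 38.2, 30.5 and 22.5 CPM in old repopulated libraries 1 to 8, lowest in the 4 libraries where Sall1 was lowest. Among these markers Slc1a3 averaged 42.9 CPM in the old repopulated group, and no other exceeded 11.9 CPM in any library.

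**Figure D5:**
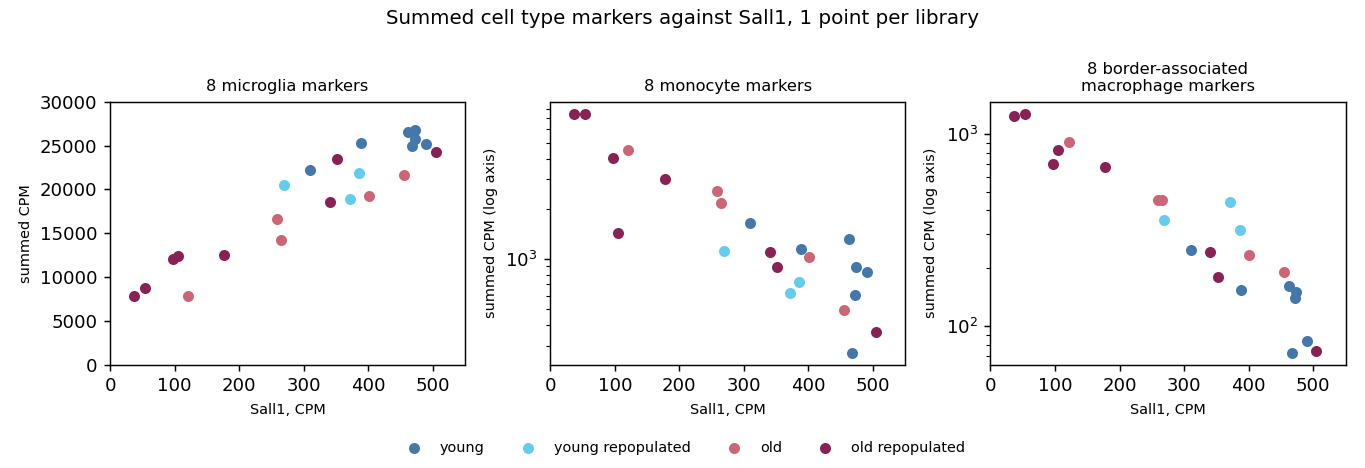
Summed CPM of 8 microglia, 8 monocyte and 8 border-associated macrophage markers (y axes, the last 2 on log axes) against Sall1 (x axis, CPM), 1 point per library coloured by group. Microglia markers run from 7835 to 26820 CPM and are high where Sall1 is high, and the other sums are high where Sall1 is low, up to 7447 and 1273 CPM.

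Relatives of the members from the same gene families were called as higher only. Of 28 relatives listed, 24 were tested, and 4 rose and 0 fell in old repopulated against young libraries, where 9.29% of all genes rose and 5.92% fell. Runx2 (4.56 ± 0.61, edgeR adjusted p = 0.000115), a factor best known from bone, and Runx3 (4.42 ± 0.75, adjusted p = 0.000912), known from lymphocytes and some monocytes, led them, followed by Spib (3.07 ± 0.92), an ETS relative of PU.1. Mean Runx3 was 4.07 ± 5.45 CPM over the 7 young libraries (SD), 37.6 ± 8.24 CPM over the 3 young repopulated, 93.3 ± 88.3 CPM over the 5 old and 87.1 ± 59.2 CPM over the 8 old repopulated libraries, while group means reached 10.4 CPM for Runx2 and 1.58 CPM for Spib. In old against young libraries 3 rose, with Runx3 (4.52) and Runx2 (4.34) changed most. In young repopulated against young libraries Runx2 (3.43) and Runx3 (3.21) rose, and none was called in old repopulated against old. Leaving out 1 library gave between 3 and 7 called relatives for old repopulated against young (7 without old repopulated library 1), 2 to 5 for old against young and 0 to 2 for young repopulated against young. Monocyte markers rose in the same comparison, among them F10 (5.02), Ly6c2 (4.33) and Chil3 (4.20). Runx3 was highest in old library 3 at 218 CPM, which also had the highest Ly6c2, and lay at 154, 120 and 166 CPM in the old repopulated libraries numbered 12 to 24. It was also 106 CPM in old repopulated library 2, where Ly6c2 was 2.97 CPM. The part of other cells in the higher Runx2 and Runx3 was not tested. In the same libraries Runx1 itself was lower in old repopulated than in young and was not called elsewhere.

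Other macrophage transcription factors gave 3 rises and 7 falls among 33 in old repopulated against young libraries, beside 9.29% and 5.92% of all genes. Bhlhe40 rose by the most (2.54 ± 0.45, edgeR adjusted p = 0.00112), a helix-loop-helix repressor, from 25.9 ± 6.68 CPM in young to 150 ± 100 CPM in old repopulated libraries, and it also rose in old against young (2.27 ± 0.48). Tfec (1.92), of the MITF family, rose and the ETS gene Ets1 fell (-1.06). Stat2, a mediator of interferon signals (-1.06 ± 0.18, edgeR adjusted p = 0.0165), and Tcf4 (-0.30 ± 0.06, adjusted p = 0.0437) fell in old repopulated against old libraries. In young repopulated against young libraries Tcf4 fell (-0.32 ± 0.08, edgeR adjusted p = 0.0491). These small counts depended on single libraries in many of the 23 fits that left 1 out, with 4 to 12 called for old repopulated against young, 0 to 3 for renewal in old and 0 to 1 for renewal in young mice. Of 6 tested factors tied to macrophages of other tissues, 2 rose in old and in old repopulated against young libraries, Pparg and Nr1h3, known from alveolar and splenic macrophages, with group means of at most 3.35 and 16.8 CPM. They numbered 0 to 2 and 2 to 4 without 1 library.

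Partners of Sall1 and MEF2 proteins were called at about the share of all genes. Of 17 genes of the NuRD corepressor, through which SALL proteins repress, and of class IIa deacetylases, which bind MEF2 proteins, Hdac4 (0.73 ± 0.15) and Mta3 (0.54 ± 0.14) rose and Chd4 (-0.23 ± 0.08) fell in old repopulated against young libraries, 3 of 17 where 15.2% of all genes were called, and none passed in the other comparisons. Of 10 genes of TGF-beta signalling, which microglia need to keep their identity, Smad4 rose in old against young (0.26 ± 0.07, edgeR adjusted p = 0.0422) and Skil fell in old repopulated against young libraries (-0.38 ± 0.09, adjusted p = 0.0094). Tgfbr1, the receptor, was at 1185, 1300, 942 and 965 CPM on average in Y, Y-re, O and O-re and did not pass. Leaving out 1 library gave 2 to 5 called NuRD and deacetylase genes and 1 to 2 TGF-beta genes for old repopulated against young, and 0 to 1 TGF-beta genes for old against young.

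The microglia signature, a list of 20 surface and secreted genes of which several depend on SALL1, was lower in old repopulated than in young libraries for 8 genes and higher for 0, where 5.92% of all genes were lower. Crybb1 (-1.95 ± 0.53), P2ry12 (-1.20 ± 0.35), the purine receptor of surveying microglia, and Fcrls (-1.0 ± 0.17) fell by the most. Fcrls alone fell in old against young libraries (-0.78 ± 0.20, edgeR adjusted p = 0.034), and none passed in either renewal. The median log2 difference of old repopulated from young was -0.68 for the signature, -0.18 for the 9 members and -0.02 for all genes tested. Without 1 library 6 to 16 signature genes were called, the 16 without old repopulated library 1, whose Sall1 was highest (25.7% of all genes), and in old against young 0 to 2. Within library numbers 12 to 24, where 41.1% of all genes were called in old repopulated against young libraries, 20 signature genes, 17 other macrophage factors, 11 family relatives, 9 NuRD and deacetylase genes and 7 TGF-beta genes passed, and within 1 to 11 none of these did. Of 12 immediate early genes, which tissue dissociation induces, 0 passed in any comparison of the fit to all libraries, with Junb at 1802, 1877, 1790 and 1683 CPM on average in the 4 groups. Within the old repopulated group their summed level was nevertheless high where Sall1 was high. Libraries 1, 3 and 4, with 505, 340 and 352 CPM of Sall1, held 18089, 12046 and 12712 CPM, and the other 5 held between 6843 and 8711 CPM. The part of dissociation in the spread of Sall1 was not tested.

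The deposited tables also give a mean transcript length per gene and library, weighted by the isoforms estimated. For Mef2c it was 4283 ± 222 bases in young repopulated libraries (SD, n = 3, range 4028 to 4436) and 5211 ± 175 bases in young ones (n = 7, range 5070 to 5578), with no overlap. An exact two-sided permutation test gave p = 0.0167, the smallest this design allows, and an adjusted p of 0.167 over the 30 tests run on 6 members, so it did not pass. Old libraries averaged 4751 ± 423 bases for Mef2c (exact permutation p = 0.00505 against young, adjusted 0.152) and old repopulated ones 5049 ± 328 bases. No other member passed either, and these length tests were chosen after the data were seen.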

How the data were processed

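Libraries were stranded, poly(A)-selected and read singly at 50 nt, per the labels' protocols. FastQC 0.11.5, STAR, RSEM and limma with build GRCm38 are named per the submitters' processing notes. The sources used here do not give the annotation, other versions or whether counting used strand. The authors deposited 1 table per library in the layout of RSEM gene results, per the file headers. The deposited expected counts (87.26% whole within 1e-06) were rounded and tested. Deposited TPM values served only for levels between genes. The deposited transcript length per gene, in bases, served as a description, and deposited FPKM values were not used here.

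Genes were kept by filterByExpr (18720 genes), scaled by TMM and fitted in R 4.3.3 with edgeR 4.0.16 (quasi-likelihood test, 1 coefficient per group, all 23 libraries, Benjamini-Hochberg over all genes, called at an adjusted p under 0.05). Each gene had an estimate of spread shared by all groups. The procedure was tested on simulated data. The 5 group comparisons and the interaction were repeated with RLE and upper-quartile scaling, no filter, DESeq2 1.42.0, limma 3.58.1 with voom and library quality weights, a fit restricted to the groups compared, the library number range as a term or as a subset, and each library left out. Log2 CPM used a prior count of 2, and correlations used 100000 permutations within groups.

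The members and the gene lists were chosen with earlier results of these data known. All 9 members are named. From each list up to 3 called genes of largest change are named per comparison, or the 2 most abundant where none was called, given here for a selection. For each member the 2 genes most like it are named, without predicted genes, pseudogenes and members. Gene coordinates come from GENCODE M21 where the identifier version was identical, and upstream windows from RefSeq on GRCm38.p6. Counts share reads among similar genes by estimation. The difference between number ranges, the transcript lengths and the Fn1 share were examined after seeing the data.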

Additional observations from a re-analysis of the deposited data

Results flagged for a closer look

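Cebpb was 716 CPM in old library 3, far from the other old libraries (442 to 484 CPM), with a gap that took up 0.847 of the group's range. Of 27 combinations of member and group tested this way, 1 stood out, and chance alone would give about 1 in 20. The same library held the lowest Sall1 of its group (121 CPM), a monocyte marker sum of 4526 CPM and 378 CPM of Ly6c2, and the part of these cells in its Cebpb level was not tested.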

How the results depend on the processing

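Of 450 member fold changes under other settings, 399 kept their direction and side of the threshold, 26 passed newly, 2 no longer passed and 23 changed sign. The number of called members moved as follows. For old against young it was 2 with voom and 2 within library numbers 12 to 24, and 0 to 1 without 1 library, the 1 (Cebpb) without young library 3. For renewal in old mice it was 1 within 12 to 24. For old repopulated against young it was 6 with voom, 4 with the number range as a term, 7 within 12 to 24 and 0 within 1 to 11, and 0 to 5 without 1 library. For old repopulated against young repopulated it was 4 with voom and 6 within 12 to 24. Counts over all genes also differed, from 530 to 2363 for old against young and from 2847 to 6646 for old repopulated against young between edgeR and voom. For young repopulated against young, edgeR called 251 of 18720 genes in the fit to all libraries and 1255 of 16726 with only the groups compared. The cause was not tested.

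Signs changed only for fold changes of at most 0.21 in size in the fit to all libraries. In old against young, Spi1 was -0.04 with upper-quartile scaling and -0.11 within 1 to 11. In old repopulated against old, with voom, the range term and numbers 12 to 24, Irf8 was -0.16, -0.07 and -0.39 and Maf -0.05, -0.07 and -0.29, and Cebpb was 0.04 with voom and 0.11 within 12 to 24. In young repopulated against young, Sall3 was 0.13 with the range term. In old repopulated against young, Mef2a was 0.01 with only the groups compared, 0.01 with the range term and 0.05 within 12 to 24, Spi1 was 0.08 within 12 to 24 and Irf8 0.09 within 1 to 11. In old repopulated against young repopulated, Mef2a was 0.01 within 12 to 24. For the interaction, Mef2a was 0.06 with voom, 0.04 with the range term and 0.06 within 12 to 24, Mef2c was -0.04 with the range term and -0.12 within 12 to 24, and Runx1 was -0.03 within 12 to 24. Correlations with Sall1 changed sign for Mef2a (0.31 within 1 to 11 and 0.01 without the 2 farthest libraries), Spi1 (0.26) and Maf (-0.05) within 1 to 11, and Runx1 (-0.19) within 12 to 24, none of which passed at first.

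Leaving out 1 library kept 1192 of 1242 fold changes as they were, and 37 changed sign. The ranges were -0.07 to 0.01 for Mef2a and -0.01 to 0.07 for Spi1 in old against young. They were -0.29 to 0.02 for Mef2c, -0.08 to 0.08 for Irf8, -0.09 to 0.08 for Maf and -0.17 to 0.05 for Cebpb in old repopulated against old. They were -0.31 to 0.07 for Sall3 in young repopulated against young and -0.04 to 0.04 for Mef2a in old repopulated against young. For the interaction they were -0.45 to 0.02 for Sall3, -0.08 to 0.02 for Mef2a, -0.15 to 0.02 for Irf8 and -0.05 to 0.07 for Runx1.

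No paired analysis was possible because the library numbers in the titles are all distinct and the replicate numbers only follow the order of deposit. Only 3 young repopulated libraries, all numbered 12 to 24, limit every comparison with that group. Every member was detected in every library, the lowest value being 24.5 CPM of Sall3, so no result for a member rests on a count of 0. This does not hold for all markers, since Cd207 was at 0 in 17 libraries.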
